A study of Homo sapiens with 6 samples.

Results

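Retinoic acid is made inside the cell from vitamin A, in an oxidation of retinol to retinaldehyde followed by an irreversible oxidation of retinaldehyde by the ALDH1A dehydrogenases. Small binding proteins of the cytosol (CRABP1 and CRABP2) carry the product, nuclear receptors (RARA, RARB and RARG, each paired with an RXR) bind it and switch target genes, and enzymes of the CYP26 family break it down. In the prostate, retinoic acid is known to act in growth and differentiation, and ALDH1A2 is known as a gene that is often silenced in prostate cancer. The 9 genes described here are the 3 dehydrogenases ALDH1A1, ALDH1A2 and ALDH1A3, the carriers CRABP1 and CRABP2, the receptors RARA, RARB and RARG, and the breakdown enzyme CYP26B1. They were taken by name from a table of 33117 gene symbols, and all 9 had a row. The list was drawn up with their levels in the same comparison of groups already known, so their differences between groups are given as a description, with no test.

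RNA sequencing of total RNA was done on WPMY-1 cells, an immortalised stromal cell line from human normal prostate, kept in a medium with 5% fetal bovine serum. The shCAVIN1 group (3 libraries) carried a lentiviral short hairpin RNA against CAVIN1, a protein needed to form caveolae, the small pits of the cell membrane. The shCtrl group (3 libraries) carried the pLKO1 control plasmid, and both groups were transduced and selected with puromycin as stable lines. The knockdown rests on 1 hairpin, and the labels do not say how many clones or transductions stand behind the 3 biological replicates of a group, so the p-values below measure the spread between these libraries. CAVIN1, listed under its older symbol PTRF, measured 133.9, 138.8 and 150.2 FPKM (fragments scaled by transcript length and by all mapped fragments) in the shCAVIN1 libraries, against 329.6, 346.9 and 330.3 FPKM in the shCtrl libraries. The hairpin target had a full match in the transcripts of 1 gene, CAVIN1, and in none of the transcripts of the 9 retinoic acid genes, where the longest uninterrupted match was 7 to 9 bases. Of 10 stromal markers, 9 were at 1 FPKM or more in all 6 libraries (VIM averaged 296 ± 13.8 FPKM in shCAVIN1 and 280 ± 28.1 FPKM in shCtrl; SD, n = 3 each), and PDGFRA was at 0.149 ± 0.0207 FPKM in shCAVIN1 and 0.586 ± 0.0573 FPKM in shCtrl. The stromal marker sum lay between 2048 and 2092 FPKM in shCAVIN1 and between 1178 and 1282 FPKM in shCtrl. S100A6 made up most of the sum in shCAVIN1. S100A6 (1512 ± 21.6 FPKM in shCAVIN1, 430.2 ± 19.8 FPKM in shCtrl) and ENG (5.13 ± 0.373 FPKM in shCAVIN1, 3.81 ± 1.04 FPKM in shCtrl) were higher, each without overlap between the groups. The difference of ENG did not pass the threshold used below, an adjusted p under 0.05 (limma adjusted p = 0.104). FN1 (57.8 ± 5.41 FPKM in shCAVIN1, 199 ± 57.8 FPKM in shCtrl), THY1 (101 ± 2.2 FPKM in shCAVIN1, 160.4 ± 9.90 FPKM in shCtrl) and COL6A1 (7.55 ± 0.180 FPKM in shCAVIN1, 9.05 ± 0.486 FPKM in shCtrl) were lower, each without overlap between the groups. Of all tested genes, 31.3% were higher and 33.3% lower without overlap. Of 11 prostate epithelial markers, KLK2, KLK3 and TMPRSS2 were listed at 0 in all 6 libraries, and KRT8 and KRT18 were at 1 FPKM or more in all 6, and the marker sum lay between 243.9 and 259.0 FPKM in shCAVIN1 and between 399.6 and 433.5 FPKM in shCtrl. Both sums moved with the groups, and their part in the differences below was not tested. Endothelial markers summed to at most 1.34 FPKM and leukocyte markers to at most 1.90 FPKM in any library.

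Start-site windows are shown for the gene that differed most between the groups, for its sister enzyme with a similar level in both groups, and for the receptor with the best known retinoic acid response element. Each runs from 250 bases before to 50 bases after a transcription start (RefSeq, GRCh38.p14), read 5′ to 3′ on the gene's strand. Capitals mark GC boxes (GGGCGG on either strand) in the dehydrogenase windows and the DR5 element in the RARB window. A DR5 element is a pair of half-sites in the same direction, each of which may read AGGTCA or, with another first letter, GGGTCA, and as an accepted variant AGTTCA or, as in RARB itself, GGTTCA, with 5 bases between them, the arrangement to which a receptor of retinoic acid with its RXR partner is known to bind.
ALDH1A2, chr15:58065662-58065961, minus strand: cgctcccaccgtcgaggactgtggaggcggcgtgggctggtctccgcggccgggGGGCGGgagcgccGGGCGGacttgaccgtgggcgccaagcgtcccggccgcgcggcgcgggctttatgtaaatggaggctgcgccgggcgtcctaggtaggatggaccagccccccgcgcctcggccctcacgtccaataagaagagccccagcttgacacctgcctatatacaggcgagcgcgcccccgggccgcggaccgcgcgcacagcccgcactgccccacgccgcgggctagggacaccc
ALDH1A3, chr15:100879581-100879880, plus strand: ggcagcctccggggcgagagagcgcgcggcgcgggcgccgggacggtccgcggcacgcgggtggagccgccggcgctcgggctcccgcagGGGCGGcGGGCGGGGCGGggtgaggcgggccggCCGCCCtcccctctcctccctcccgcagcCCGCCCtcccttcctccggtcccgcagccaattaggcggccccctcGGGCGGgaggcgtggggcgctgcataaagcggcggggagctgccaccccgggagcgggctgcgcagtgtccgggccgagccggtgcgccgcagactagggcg
RARB, chr3:25428013-25428312, plus strand: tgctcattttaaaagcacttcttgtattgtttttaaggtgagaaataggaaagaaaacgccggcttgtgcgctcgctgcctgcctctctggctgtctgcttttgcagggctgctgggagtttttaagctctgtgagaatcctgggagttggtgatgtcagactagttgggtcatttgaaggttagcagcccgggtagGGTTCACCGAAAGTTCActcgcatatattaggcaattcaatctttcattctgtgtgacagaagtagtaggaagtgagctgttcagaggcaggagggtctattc

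Both dehydrogenase windows printed here were rich in G and C. The ALDH1A2 window was 74.0% G and C with 41 CpG dinucleotides and the ALDH1A3 window 81.7% with 46, against medians of 58.7% and 14 over all 35116 windows of the table. GC boxes, which stood in 45.0% of all windows, were found at 2 places in the ALDH1A2 window and at 6 in the ALDH1A3 window, 2 of them overlapping by 1 base. The other ALDH1A2 window of the table was 42.7% G and C with 1 CpG, and the ALDH1A1 window 40.3% with 7. Among the windows of the 9 genes, a DR5 element was found in 1 of the 4 RARB windows, with its first base at position -53 from the transcription start. The same search on both strands found DR5 elements in 31 of 35116 windows (0.0883%), and a half-site AGGTCA alone in 13.8%. Another of the 31 windows belonged to CYP26A1, a retinoic acid breakdown enzyme that retinoic acid is known to induce. The elements are shown side by side, with the half-sites in capitals, because both belong to classical target genes of retinoic acid.
RARB DR5, chromosome 3, at -53 on the gene's strand: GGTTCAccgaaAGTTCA
CYP26A1 DR5, chromosome 10, at -90 on the strand opposite to the gene: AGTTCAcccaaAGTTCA

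The table gives 1 value per gene, so transcripts from different starts of RARB cannot be told apart, and a match is a description of the letters, not of binding.

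ALDH1A2, the main dehydrogenase of the embryo's mesoderm, was nearly absent from the shCAVIN1 libraries. It stood at 0.00910, 0.0209 and 0.0166 FPKM in the shCAVIN1 libraries, against 12.8, 14.8 and 14.1 FPKM in the shCtrl libraries. Every shCAVIN1 value was under 0.03 FPKM and every shCtrl value over 12 FPKM. The means were 0.0155 ± 0.00598 FPKM in shCAVIN1 and 13.9 ± 1.04 FPKM in shCtrl (SD, n = 3 each), which puts the shCAVIN1 level at 0.112% of shCtrl, 895-fold lower. On the scale of log2(FPKM + 0.5), which understates changes that end near 0, the log2 fold change was -4.80 (SE 0.0722). The depth of the libraries is unknown, so how few fragments stand behind the shCAVIN1 values cannot be given, and the size of the ratio is imprecise. In RNA of a whole culture, fewer cells that express a gene and less of its RNA per cell cannot be told apart.

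ALDH1A3, the dehydrogenase known from epithelia and from androgen-responsive prostate cells, stayed at a similar level. It stood at 17.2, 17.0 and 17.0 FPKM in the shCAVIN1 libraries, against 15.2, 16.4 and 16.1 FPKM in the shCtrl libraries. The groups did not overlap, but the means, 17.1 ± 0.124 FPKM in shCAVIN1 and 15.9 ± 0.603 FPKM in shCtrl, were 1.08-fold apart (log2 fold change 0.10, SE 0.0419). ALDH1A1, the dehydrogenase known as a marker of many stem-like cells, was listed at 0 in all 6 libraries. An exact 0 in this table can be a failed estimate, since the abundant small nuclear RNA RN7SK is also listed at 0 in shCtrl replicate 2.

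**Figure D1:**
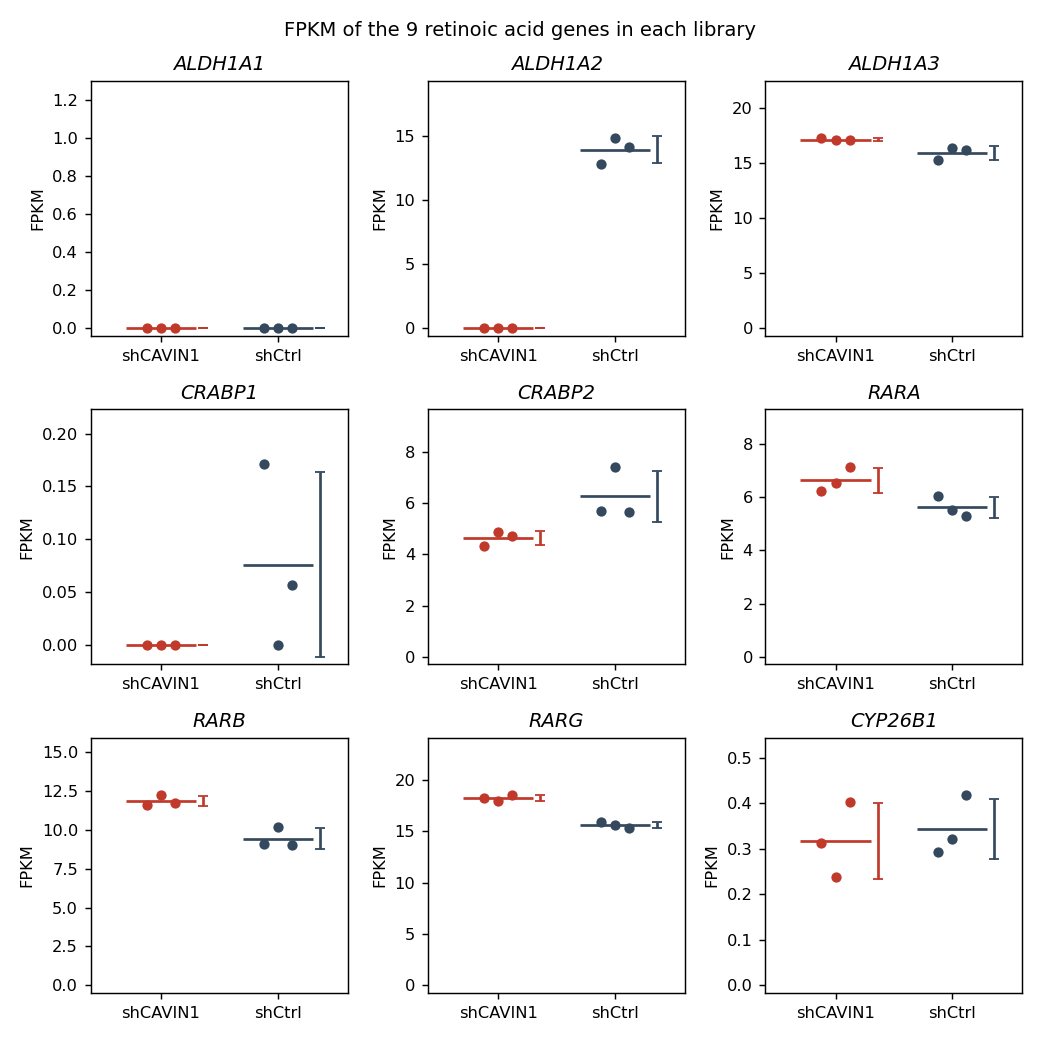
FPKM of each of the 9 genes in the 3 shCAVIN1 and the 3 shCtrl libraries (points), with the group mean (horizontal line) and ± 1 SD (bar at the side). ALDH1A2 lies near 0 in shCAVIN1 and at 12.8 to 14.8 FPKM in shCtrl, the 3 receptors lie higher in shCAVIN1, and the vertical scale differs between panels.

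Taking the dehydrogenases together, the summed FPKM of ALDH1A1, ALDH1A2 and ALDH1A3 was 17.3, 17.1 and 17.1 in the shCAVIN1 libraries and 28.0, 31.2 and 30.3 in the shCtrl libraries. ALDH1A2 made up 0.0527%, 0.123% and 0.0975% of this sum in shCAVIN1 and 45.6%, 47.5% and 46.7% in shCtrl. ALDH1A3 and ALDH1A2 were thus at comparable levels in shCtrl, with an ALDH1A3 to ALDH1A2 ratio of 1.15 ± 0.0438 there, and ALDH1A3 supplied nearly all of the sum in shCAVIN1. FPKM divides by transcript length, but the annotation is not given and the lengths used are unknown. Levels set side by side between genes are therefore approximate.

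**Figure D2:**
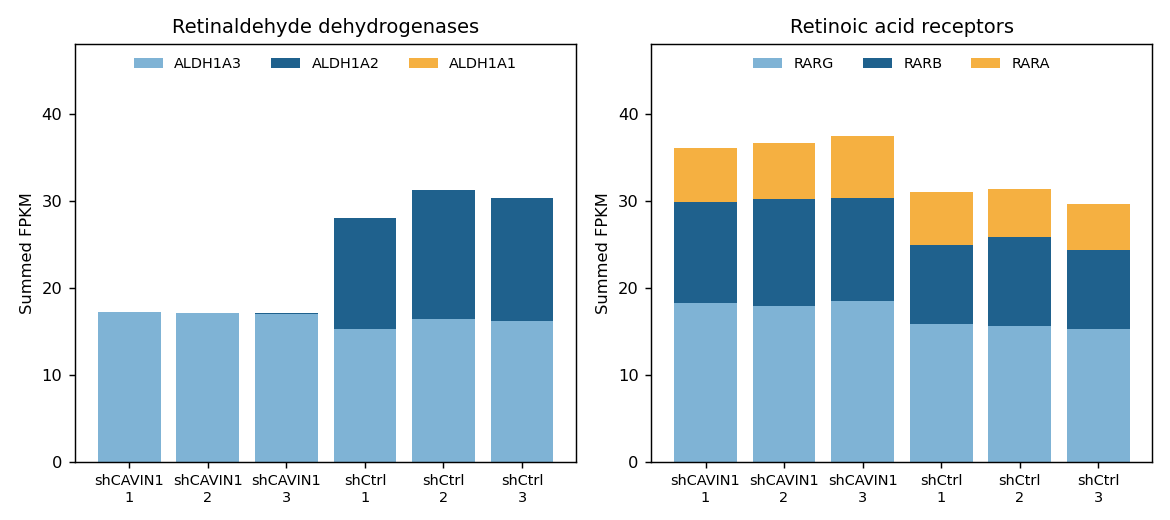
Summed FPKM (vertical axis, from 0) of the retinaldehyde dehydrogenases and of the retinoic acid receptors in each library, with the part of each gene in colour. The dehydrogenase sum is 17.1 to 17.3 FPKM in shCAVIN1, nearly all ALDH1A3, and 28.0 to 31.2 FPKM in shCtrl, and the receptor sum is 36.1 to 37.4 FPKM in shCAVIN1 and 29.6 to 31.4 FPKM in shCtrl.

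Among the carriers, CRABP2, which is known to deliver retinoic acid to its nuclear receptors, was lower in shCAVIN1. It stood at 4.33, 4.89 and 4.72 FPKM in the shCAVIN1 libraries, against 5.72, 7.44 and 5.66 FPKM in the shCtrl libraries. The groups did not overlap, and shCtrl replicate 2 stood above the other shCtrl libraries. The means were 4.65 ± 0.285 FPKM in shCAVIN1 and 6.27 ± 1.01 FPKM in shCtrl, 74.1% of the shCtrl level (log2 fold change -0.39, SE 0.111), and the log2 fold change was -0.27 without shCtrl replicate 2. CRABP1, the carrier linked to retinoic acid breakdown, was listed at 0 in the 3 shCAVIN1 libraries and in shCtrl replicate 2, and at 0.171 and 0.0568 FPKM in shCtrl replicates 1 and 3.

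The receptors were all somewhat higher in shCAVIN1, with no overlap between the groups for any of the 3. Of all tested genes, 31.3% were likewise higher without overlap. RARB, the receptor whose own promoter carries the DR5 element shown above and which retinoic acid is known to induce, stood at 11.6, 12.2 and 11.7 FPKM in the shCAVIN1 libraries, against 9.06, 10.2 and 8.99 FPKM in the shCtrl libraries. Its means were 11.9 ± 0.331 FPKM in shCAVIN1 and 9.42 ± 0.681 FPKM in shCtrl, 1.26-fold higher (log2 fold change 0.32, SE 0.0599). RARG, the most abundant of the receptors, stood at 18.2, 17.9 and 18.5 FPKM in the shCAVIN1 libraries, against 15.9, 15.6 and 15.3 FPKM in the shCtrl libraries (1.17-fold, log2 fold change 0.22, SE 0.0370). RARA, the most widely expressed of the receptors across tissues, stood at 6.24, 6.51 and 7.15 FPKM in the shCAVIN1 libraries, against 6.05, 5.52 and 5.29 FPKM in the shCtrl libraries (1.18-fold, log2 fold change 0.22, SE 0.0716).

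After rescaling to TPM, in which each library sums to the same total, the log2 fold changes were larger, at 0.44 for RARB, 0.34 for RARG, 0.34 for RARA and 0.22 for ALDH1A3.

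The receptor sum was 36.7 ± 0.660 FPKM in shCAVIN1 and 30.6 ± 0.930 FPKM in shCtrl, 1.20-fold higher. RARG made up 49.6% ± 0.855 of it in shCAVIN1 and 50.9% ± 0.965 in shCtrl. RARB made up 32.3% ± 0.999 in shCAVIN1 and 30.7% ± 1.67 in shCtrl, and RARA 18.1% ± 0.939 in shCAVIN1 and 18.3% ± 1.04 in shCtrl. For each of these 3 shares the libraries of the groups overlapped. CYP26B1, a breakdown enzyme known from the developing limb and gonad, was low throughout, at 0.312, 0.237 and 0.403 FPKM in the shCAVIN1 libraries, against 0.292, 0.321 and 0.418 FPKM in the shCtrl libraries, and the groups overlapped.

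The order of the 9 genes by mean FPKM differed between the groups mainly through ALDH1A2. In shCAVIN1 the order was RARG, ALDH1A3, RARB, RARA, CRABP2, CYP26B1 and ALDH1A2, with no overlap of libraries between neighbours, followed by ALDH1A1 and CRABP1 at 0. In shCtrl it was ALDH1A3, RARG, ALDH1A2, RARB, CRABP2, RARA, CYP26B1, CRABP1 and ALDH1A1, where ALDH1A3 overlapped RARG, CRABP2 overlapped RARA and CRABP1 overlapped ALDH1A1.

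For genes with a mean of at least 0.5 FPKM over the 6 libraries, the groups were compared with limma on log2(FPKM + 0.5), with Benjamini-Hochberg adjustment over all 13941 such genes and an adjusted p under 0.05 as the threshold. Of the 9 retinoic acid genes, 6 reached that level, ALDH1A2 only through the shCtrl libraries, and ALDH1A1, CRABP1 and CYP26B1 did not. The fit gave the log2 fold changes and standard errors above, and no call is given for these genes. For each of the 6, no shCAVIN1 value lay within the range of the shCtrl values, beside 64.6% of all tested genes. Because these genes were chosen with this comparison known, nothing is read from this count. Of all tested genes, 55.5% passed the threshold, 27.3% higher and 28.2% lower in shCAVIN1. Besides RARB, 6 genes with a DR5 element in a start-site window were tested, of which PHF8 rose, CFLAR, PANK2, HROB (listed as C17orf53) and ATXN1L fell, and CYB5R2 did not pass (limma, adjusted p between 0.000354 and 0.0791). They were picked by sequence after the values were known.

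The other genes of vitamin A metabolism and retinoic acid response were taken from 7 lists, and these lists were also drawn up with earlier results of the data in view. They hold 112 different genes, of which 66 were expressed enough to be tested. Of these, 22 rose in shCAVIN1, 24 fell and 20 did not pass, so that 69.7% changed, beside 55.5% of all tested genes. Their median log2 fold change was -0.05, beside -0.02 over all tested genes. After rescaling to TPM, 23 of the 66 were called (34.8%), beside 24.5% of all tested genes. The genes named below are those with the lowest adjusted p in each list, up to 5, unless stated otherwise.

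**Figure D3:**
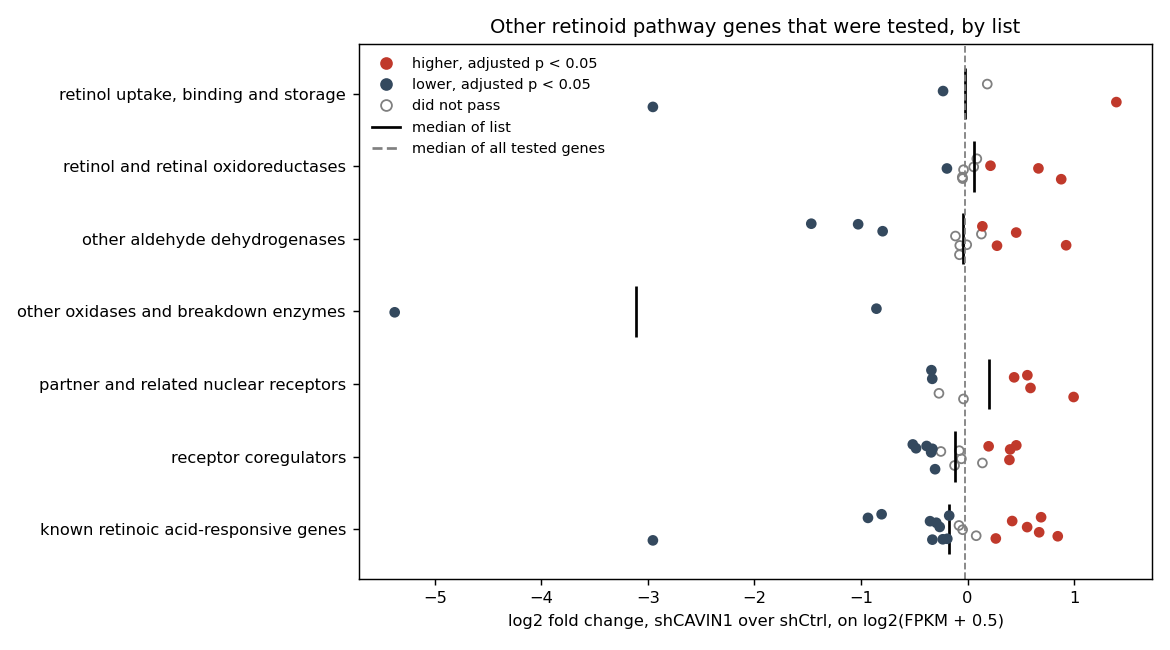
Log2 fold change (horizontal axis, shCAVIN1 over shCtrl on log2(FPKM + 0.5)) of each tested gene in the 7 lists, which run down the vertical axis. Filled points passed the threshold, open points did not, black ticks are list medians and the dashed line is the median of all tested genes at -0.02, and both directions are seen in 6 of the 7 lists.

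For retinol uptake, binding and storage, 4 of 12 genes were tested, of which 1 rose and 2 fell (75.0%, beside 55.5% of all tested genes). RBP7, a cellular retinol-binding protein, rose to 1.69 ± 0.148 FPKM in shCAVIN1, against 0.340 ± 0.165 FPKM in shCtrl (log2 fold change 1.40, SE 0.164, limma adjusted p = 0.000739). All shCAVIN1 values of RBP7 lay above all shCtrl values. SCARB1, a lipoprotein receptor that also takes up carotenoids, fell slightly (log2 fold change -0.23, limma adjusted p = 0.0110), a call lost after rescaling to TPM (adjusted p = 0.621) and to a common protein-coding sum (adjusted p = 0.0537). STRA6, the retinol transporter of the cell membrane, was below the level for testing at 0.253 ± 0.0760 FPKM in shCAVIN1 and 0.645 ± 0.0241 FPKM in shCtrl, and was named after its values were seen.

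Of 20 oxidoreductases between retinol and retinaldehyde, 9 were tested, 3 rose, 1 fell and 5 did not pass. The share that changed was 44.4%, beside 55.5% of all tested genes. RDH10, the main retinol dehydrogenase of the embryo, rose to 4.68, 4.68 and 5.08 FPKM in the shCAVIN1 libraries, against 2.74, 2.83 and 2.97 FPKM in the shCtrl libraries (log2 fold change 0.67, SE 0.0578, limma adjusted p = 0.000228). RDH5, known from the visual cycle, rose to 3.69 ± 0.142 FPKM in shCAVIN1, against 1.80 ± 0.380 FPKM in shCtrl (log2 fold change 0.88, limma adjusted p = 0.00172). ADH5, a broad alcohol dehydrogenase, rose (log2 fold change 0.22, limma adjusted p = 0.0350), but its call was lost without any single library other than shCtrl replicate 2 (adjusted p 0.0746 to 0.108) and under TPM (adjusted p = 0.227). AKR1B1, aldose reductase, fell (log2 fold change -0.19, limma adjusted p = 0.0381), but its call was lost without any single library other than shCtrl replicate 1 (adjusted p 0.0587 to 0.122). The AKR1B1 call was also lost with no filter on low values (adjusted p = 0.0508), with the replicate number as a block (adjusted p = 0.0645) and under TPM (adjusted p = 0.793). DHRS3, the main retinaldehyde reductase and itself a gene that retinoic acid induces, was abundant and did not pass, at 32.8 ± 1.25 FPKM in shCAVIN1 and 33.9 ± 2.30 FPKM in shCtrl, and was named after its values were seen.

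Aldehyde dehydrogenases outside the ALDH1A group moved both ways. Of 16, 12 were tested, 4 rose, 3 fell and 5 did not pass, so that 58.3% changed, beside 55.5% of all tested genes. ALDH2, the mitochondrial enzyme that clears acetaldehyde, fell to 4.45 ± 0.243 FPKM in shCAVIN1, against 9.60 ± 0.805 FPKM in shCtrl (log2 fold change -1.03, limma adjusted p = 0.000120). ALDH7A1, of lysine breakdown, fell to 1.69 ± 0.135 FPKM in shCAVIN1, against 5.57 ± 0.643 FPKM in shCtrl (log2 fold change -1.47, limma adjusted p = 8.365e-05). ALDH9A1, of carnitine synthesis, rose to 39.8 ± 0.824 FPKM in shCAVIN1, against 20.7 ± 1.59 FPKM in shCtrl (log2 fold change 0.93, limma adjusted p = 8.74e-05). ALDH4A1 and ALDH3A2 rose by log2 0.46 and 0.28, and the call of ALDH3A2 was lost after rescaling to TPM (adjusted p = 0.118). The change of ALDH7A1 was the largest in absolute log2 fold change among these 12 genes.

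Of 11 other oxidases and breakdown enzymes, 2 were tested and both fell, beside 28.2% of all tested genes. AOX1, an aldehyde oxidase that can turn retinaldehyde into retinoic acid, fell to 7.48, 7.63 and 8.19 FPKM in the shCAVIN1 libraries, against 13.8, 14.98 and 14.6 FPKM in the shCtrl libraries (log2 fold change -0.86, SE 0.0541, limma adjusted p = 7.89e-05). CYP1B1, which is known to oxidise retinol and retinaldehyde as well as steroids and pollutants, fell to 0.312 ± 0.0310 FPKM in shCAVIN1, against 33.3 ± 2.76 FPKM in shCtrl (log2 fold change -5.38, SE 0.0723, limma adjusted p = 1.43e-06). CYP26A1 was low, at 0.134, 0.141 and 0.106 FPKM in the shCAVIN1 libraries, against 0.0605, 0.0423 and 0.0436 FPKM in the shCtrl libraries, without overlap and without a test. CYP26C1 averaged 0.205 ± 0.0484 FPKM in shCAVIN1 and 0.193 ± 0.0619 FPKM in shCtrl, so that each of the 3 CYP26 genes stayed under 0.5 FPKM in every library. Both CYP26A1 and CYP26C1 were named after their values were seen.

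Among partner and related nuclear receptors, 8 of 12 genes were tested, 4 rose and 2 fell (75.0%, beside 55.5% of all tested genes). After rescaling to TPM the 4 higher calls and none of the lower calls were left. RXRA, a partner of all 3 retinoic acid receptors, rose to 11.9, 11.4 and 11.9 FPKM in the shCAVIN1 libraries, against 7.43, 8.20 and 7.76 FPKM in the shCtrl libraries (log2 fold change 0.56, SE 0.0495, limma adjusted p = 0.000241). RXRB, the more abundant partner in both groups, did not pass, at 14.1 ± 0.289 FPKM in shCAVIN1 and 14.5 ± 0.441 FPKM in shCtrl (named after its values were seen). NR2F1, an orphan receptor that binds response elements of the same kind, rose to 14.1 ± 0.497 FPKM in shCAVIN1, against 6.84 ± 0.260 FPKM in shCtrl (log2 fold change 1.0, limma adjusted p = 3.25e-05), and NR2C1 fell by log2 -0.34, a call lost after rescaling to TPM (adjusted p = 0.317).

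FABP5 and PPARD form the branch of retinoic acid binding that is known as the alternative to CRABP2 and the retinoic acid receptors, and both rose. FABP5 reached 26.2 ± 0.715 FPKM in shCAVIN1, against 17.3 ± 0.894 FPKM in shCtrl (log2 fold change 0.59, SE 0.0507, limma adjusted p = 0.000217), with the limit that it has processed pseudogenes of similar sequence. PPARD reached 9.26 ± 0.314 FPKM in shCAVIN1, against 6.70 ± 0.117 FPKM in shCtrl (log2 fold change 0.44, limma adjusted p = 0.000397). The FPKM ratio of FABP5 to CRABP2 was 5.87, 5.46 and 5.64 in the shCAVIN1 libraries and 2.84, 2.40 and 3.13 in the shCtrl libraries, without overlap. This ratio uses CRABP2 and is therefore also a description.

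**Figure D4:**
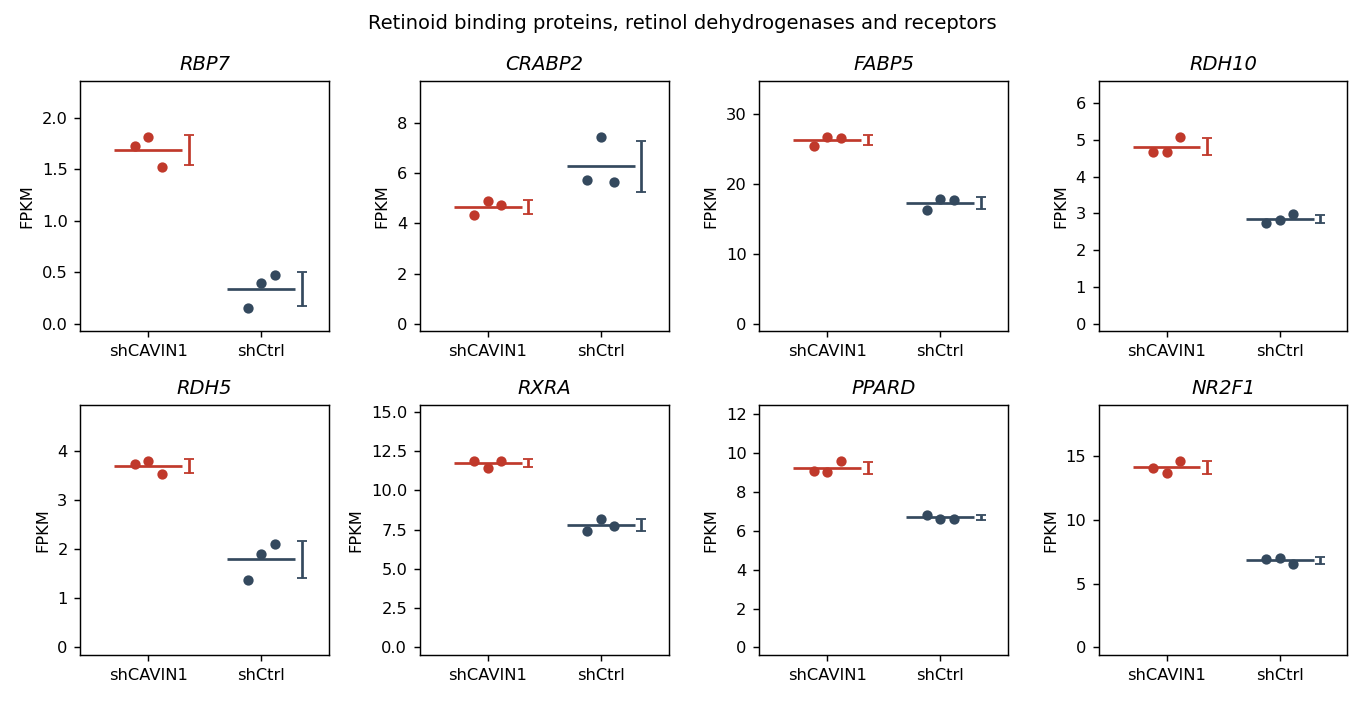
FPKM of the binding proteins RBP7, CRABP2 and FABP5, the retinol dehydrogenases RDH10 and RDH5 and the receptors RXRA, PPARD and NR2F1 in the 3 shCAVIN1 and the 3 shCtrl libraries (points), with the group mean (horizontal line) and ± 1 SD (bar at the side). CRABP2 lies lower in shCAVIN1 and the other 7 genes higher, and the vertical scale differs between panels.

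Coregulators of the receptors were expressed almost throughout, with 15 of 16 tested, 4 higher, 6 lower and 5 that did not pass. The share that changed was 66.7%, beside 55.5% of all tested genes. Coactivators were found on both sides: KAT2B and CARM1 rose by log2 0.46 (limma adjusted p = 0.000706) and 0.39 (limma adjusted p = 0.00116), and NCOA3 fell by log2 -0.38 (limma adjusted p = 0.00190). TBL1XR1, part of the corepressor complex, fell by log2 -0.48 (limma adjusted p = 0.000896) and NRIP1, a corepressor, by log2 -0.33 (limma adjusted p = 0.00151). After rescaling to TPM none of the 6 lower calls was left (NCOA3, TBL1XR1, NRIP1, NCOR1, SIN3A and MED1, adjusted p between 0.0631 and 0.397), and 2 of the 4 higher calls were (KAT2B and NCOA1), CARM1 reaching an adjusted p of 0.0543 and HDAC3 of 0.218. NCOR1, SIN3A, MED1, NCOA1 and HDAC3 were named after their values were seen.

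Known targets of retinoic acid did not move to one side. Of 31 listed, 19 were tested, 6 rose, 10 fell and 3 did not pass, so that 84.2% changed, beside 55.5% of all tested genes, with a median log2 fold change of -0.17. After rescaling to TPM, 4 of the 6 higher and 3 of the 10 lower calls were left. RARRES3 (also called PLAAT4), a phospholipase induced by retinoids, rose to 8.75 ± 0.669 FPKM in shCAVIN1, against 4.64 ± 0.370 FPKM in shCtrl (log2 fold change 0.85, limma adjusted p = 0.000302), and the plasminogen activator PLAT rose by log2 0.42 (limma adjusted p = 0.000740), a call lost after rescaling to TPM (adjusted p = 0.0528). The growth factor TGFB2 fell to 11.9 ± 0.833 FPKM in shCAVIN1, against 23.2 ± 1.11 FPKM in shCtrl (log2 fold change -0.93, limma adjusted p = 0.000106), and the transcription factor SOX9 fell to 0.421 ± 0.0631 FPKM in shCAVIN1, against 1.11 ± 0.0875 FPKM in shCtrl (log2 fold change -0.81, limma adjusted p = 0.000812). Of the 31 genes, 6 also stand on one of the lists above. The receptor RARB, a target itself, was higher and stands outside these counts.

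By position, 3 of the 9 genes lie on chromosome 15 (ALDH1A2 at 57953424 to 58497866, CRABP1 at 78340324 to 78348230 and ALDH1A3 at 100877714 to 100916626; GENCODE 29, GRCh38) and the others on 6 different chromosomes. The tested genes nearest to ALDH1A2 were POLR2M, 170.7 kb away, and ADAM10, 90.9 kb away on the other side. POLR2M fell to 17.6 ± 0.315 FPKM in shCAVIN1, against 28.2 ± 3.06 FPKM in shCtrl (log2 fold change -0.66, limma adjusted p = 0.000752), and ADAM10 fell to 30.1 ± 1.02 FPKM, against 35.3 ± 0.901 FPKM in shCtrl (log2 fold change -0.23, limma adjusted p = 0.00508). Of the 18 nearest tested neighbours of the 9 genes, 4 rose and 7 fell (61.1%, beside 55.5% of all tested genes). The span annotated for ALDH1A2 overlaps LIPC, listed at 0 in all 6 libraries, by 87298 bases. It also overlaps AQP9, with a mean of 0.00342 FPKM in shCAVIN1 and 0 FPKM in shCtrl, by 47743 bases. ALDH1A2 is on the minus strand, and its span reaches beyond the start-site window printed above (58065662 to 58065961). The distance to ADAM10 is counted from the end of the span, not from that start. RARB overlaps TOP2B on the other strand by 28 bases, and RARA overlaps the antisense gene RARA-AS1 by 2270 bases (0.582 ± 0.264 FPKM in shCAVIN1 and 0.441 ± 0.0556 FPKM in shCtrl), and the strand setting of the quantification is not known.

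The genes most like ALDH1A2 over the 6 libraries, among 12743 tested genes with a mean of at least 1 FPKM, were CNTN1 (Pearson r of log2(FPKM + 0.5) 0.99994), a neural adhesion molecule, TMPRSS15 (0.99989), a protease known from the intestine, and RFPL4A (0.99985), which has near-identical copies and is uncertain, and in all 533 genes exceeded 0.99. CNTN1 averaged 0.0657 ± 0.00705 FPKM in shCAVIN1 and 5.06 ± 0.390 FPKM in shCtrl. For RARB, the retinoic acid gene with the largest positive log2 fold change, they were POLR3C (0.998), SIAH2 (0.998) and EXOSC8 (0.997), with 73 genes above 0.99. In 2 groups of 3 libraries such values mostly express the difference between the groups, and they are given as a description.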

How the data were processed

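The authors deposited 1 table of FPKM values with 33117 gene symbols and 1 column per library (3 shCAVIN1, 3 shCtrl). Per the submitters' processing notes, which list them with no role or order, the software was TopHat2 (2.2.5), TopHat, bcl2fastq 2.17.1.14 and CASAVA, with GRCh38 as genome build. Not given in the sources used here are the quantifier, its gene annotation and strand setting, and any filters. FPKM divides by transcript length and by mapped fragments, so a few abundant RNAs in a library lower its other values: the 10 most abundant rows held 21.1% to 42.5% of a library's sum, and the sums lay between 758837 and 1043843. Depth is unknown, so counting error could not be estimated.

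Genes with a mean of at least 0.5 FPKM (13941) were put on the log2(FPKM + 0.5) scale and compared with limma (version 3.58.1, run under R 4.3.3; group as the only term, trended variances), with Benjamini-Hochberg adjustment over all of them, after a check on simulated data. Folds given as such are ratios of mean FPKM. No set test was run. The CAVIN1 difference was -1.25 on the log2 scale (SE 0.0586, adjusted p = 2.88e-05 by limma; exact two-sided permutation p = 0.1, the smallest that 3 against 3 allow). The 9 genes and the lists were chosen with earlier results of these data known. Named from each list were up to 5 genes past the threshold with the lowest adjusted p, except that some results are not reported here. Positions and neighbours come from GENCODE 29, sequences from RefSeq (GRCh38.p14), and all 9 genes matched both. The alternatives tried were pseudocounts of 0.1 and 1, no filter and a filter at 2 FPKM, rescaling to TPM, median-of-ratios scaling, the replicate number as a block, leaving out each library and, chosen after seeing the data, scaling to a common protein-coding sum.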

Additional observations from a re-analysis of the deposited data

How the results depend on the processing

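No log2 fold change of the retinoic acid genes or of the 46 called pathway genes changed direction under the 14 alternatives. Rescaling to TPM gave a median log2 fold change of all tested genes of 0.09 in place of -0.02, 3412 genes changed in place of 7734 (64.4% of them higher, in place of 49.2%) and 23 pathway genes changed in place of 46 (65.2% higher, in place of 47.8%). The library sums used for TPM include RN7SK, at 151555, 0 and 150089 FPKM in shCtrl replicates 1, 2 and 3, and its part in the lost calls was not tested. Scaling to the protein-coding sum gave 7910 genes and 41 pathway genes changed. Median-of-ratios scaling gave 7779 genes and 45 pathway genes changed. Under TPM the log2 fold changes were -4.95 for ALDH1A2, 0.22 for ALDH1A3, -0.28 for CRABP2, 0.34 for RARA, 0.44 for RARB and 0.34 for RARG. That of ALDH1A2 was -6.92 with a pseudocount of 0.1 and -3.88 with a pseudocount of 1. Leaving out each library gave 6218 to 8468 genes changed, 36 to 47 pathway genes changed and a CAVIN1 log2 fold change of -1.30 to -1.21. Of the 46 pathway calls, 23 held under every alternative that gave a value and 12 were lost under TPM alone. RBP7, SOX9 and TGM2 had no value with the filter at 2 FPKM. With the replicate number as a block, 7167 genes and 43 pathway genes changed. The same-numbered libraries correlated at 0.0936, 0.0714 and -0.0282 in their deviations from the group means, and 2 shCAVIN1 and 1 shCtrl library correlated best with their own number. The labels do not say whether same-numbered libraries share a batch, and with 3 libraries a group these values cannot settle it. Precision is limited by 3 libraries a group and an unknown depth, most of all under 0.5 FPKM, where ALDH1A2 in shCAVIN1, CRABP1 and the CYP26 genes lie.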
